A study of Mus musculus with 6 samples.

Results

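The genes described here are 36 genes of DNA replication and S phase, the stretch of the cell cycle in which the genome is copied. They were chosen by symbol from a named list, drawn up with earlier results of these data known. All 36 were found among the 16775 genes of the deposited table. The cells were osteoclasts, the multinucleated cells that resorb bone, grown from wild-type mouse bone marrow macrophages. Cultures of both groups received 30 ng/ml M-CSF, which keeps macrophages alive and dividing, 50 ng/ml RANKL, which drives osteoclast formation, and 10% serum. The verapamil group in addition received verapamil, a blocker of L-type calcium channels, at a dose and for a time that the labels do not state. The titles give day 5, while the protocol runs to day 7. Each group is labelled with 3 replicates, and 2 control libraries (replicates 1 and 3) and 3 verapamil libraries were compared, since control replicate 2 was not analysed here. The labels do not say whether replicates came from different mice or dishes. The p-values therefore reflect only how these libraries vary, and that variation may be technical.

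Replication starts when the origin recognition complex, with Cdc6 and Cdt1, loads the MCM helicase onto DNA. Cdc45 and the GINS complex then switch the helicase on, and polymerases, the PCNA clamp and its loader copy both strands from a supply of deoxynucleotides. Many of these genes are transcribed at the start of S phase by E2F factors. Osteoclast precursors divide in response to M-CSF, and they leave the cell cycle as they fuse into osteoclasts. In a bulk culture, fewer dividing cells and less of a transcript in each cell cannot be told apart.

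Promoter letters are shown first because E2F binding is the feature these genes are best known to share. RefSeq promoter windows of GRCm38.p6, from 250 bases before to 50 bases after the transcript start, were found for 31 of the 36 genes (not for Mcm4, Gins1, Gins2, Pole and Ccne2). The letters searched were TTTCCCGC, TTTGGCGC, TTTCGCGC and TTTGCCGC, which spell the common E2F motif, on both strands. They occurred in the windows of 14 of the 31 genes (45.2%), against 2.6% of all 27025 genes in the promoter table and 4.63% of the 10066 tested genes found in it. The median GC content of the windows was 62.2% for the members and 60.7% for tested genes. CCAAT, the NF-Y letters, occurred in 61.3% of members and 43.3% of tested genes on either strand, and TTTGAA, the letters of the CHR element of mitotic genes, in 16.1% and 14.6%. In the stretches below, all 5′ to 3′ on the strand of the gene, capitals mark the E2F letters on either strand. The first 5 belong to genes that were lower with verapamil, and the last 3 to genes that did not pass the test. Rfc3, which did not pass either, also has a match before the start, and its stretch is not shown. Where a stretch overlaps an annotated exon, it is cut to at most 30 bases.
Mcm5, chr8:75109331-75109392, plus strand: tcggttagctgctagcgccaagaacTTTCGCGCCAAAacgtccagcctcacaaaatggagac
Mcm6, chr1:128359720-128359840, minus strand: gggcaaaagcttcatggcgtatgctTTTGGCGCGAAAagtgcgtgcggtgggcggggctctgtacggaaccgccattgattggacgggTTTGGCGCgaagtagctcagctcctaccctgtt
Mcm7, chr5:138172030-138172059, minus strand: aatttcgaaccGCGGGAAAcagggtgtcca
Cdc6, chr11:98907988-98908045, plus strand: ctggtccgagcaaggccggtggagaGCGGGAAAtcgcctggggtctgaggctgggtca
Uhrf1, chr17:56304103-56304160, plus strand: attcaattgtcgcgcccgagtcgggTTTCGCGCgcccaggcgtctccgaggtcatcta
Dnmt1, chr9:20952824-20952853, minus strand: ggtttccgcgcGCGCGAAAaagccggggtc
Orc1, chr4:108579416-108579445, plus strand: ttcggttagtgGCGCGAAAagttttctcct
Pola1, chrX:93632261-93632318, minus strand: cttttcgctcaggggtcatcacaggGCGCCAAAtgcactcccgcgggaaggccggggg

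Except in Mcm5 and Mcm6, each stretch lies within the outer bounds of its gene, before a start that is not the outermost. In Mcm5 and Mcm6 the letters run into each other on opposite strands, which gives 12 capitals in a row, and Mcm6 holds another match nearer the start. Of the members that were lower with verapamil, 5 of the 9 with a window held the letters (55.6%), and of those not past the test 9 of 22 did (40.9%). That difference was not tested. Rrm2, Tk1, Tyms and Dut, all lower with verapamil, had no match, which says only that these letters are absent from this window. A match is a description of the letters and not evidence of binding.

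**Figure D1:**
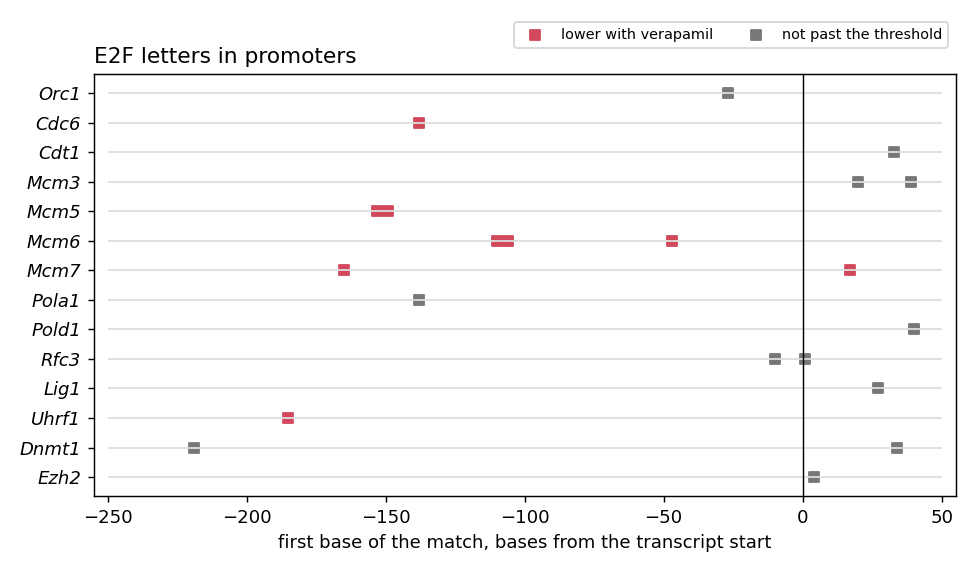
Positions of the E2F letters in the promoter windows of the 14 members that hold them; the x axis is the distance in bases of the first base of a match from the transcript start, and each square is a match. Cdt1, Mcm3, Pold1, Lig1 and Ezh2 have matches only after the start, and the 5 genes that were lower with verapamil (red) have matches before it.

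The libraries held 20202340 to 21494523 estimated counts. The median coefficient of variation over the members was 15.8% for the controls and 6.46% for the verapamil libraries. Control replicate 1 lay above control replicate 3 in 23 of the 36 members, against 43.5% of all tested genes. Part of the spread between controls ran with transcript length. The median log2 ratio of control replicate 1 to control replicate 3 was 0.33 in the length quartile of tested genes with the shortest total exon length and -0.43 in the longest quartile. Across the 36 members that log2 ratio had a Pearson r of -0.34 with log2 exon length, as a description of genes that share the same libraries. Among the osteoclast markers examined, all 10 were present, with Mmp9 highest at 2511 CPM (counts scaled to a common library size, with TMM factors) in controls, and 8 were lower and 1 higher with verapamil. Of 12 stromal and osteoblast markers 10 could be tested and 9 were lower. Their summed level was 1314 to 1501 CPM in controls and 528 to 554 CPM with verapamil, with Col1a2 highest. Of 12 macrophage markers 8 were lower and 1, Lyz2, was higher, and their summed level, mostly Lyz2, was 30723 to 31125 CPM in controls and 41804 to 45576 CPM with verapamil. Neutrophil markers (8 of 10 in the table) summed to 4.27 to 8.63 CPM in controls and 3.00 to 3.46 CPM with verapamil. The sums were 0.598 to 0.899 and 0.155 to 0.344 CPM for B cell markers (3 of 7 in the table), 0.989 to 1.11 and 1.136 to 1.33 CPM for T and NK cell markers (3 of 7), and 1.11 to 1.57 and 0.394 to 0.492 CPM for erythroid and mast cell markers (5 of 9). Hba-a1 had no count in any library, and the markers outside the table were not analysed here. The part of these cell types in the results on replication genes was not tested.

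Of the 36 replication genes, 11 fell with verapamil and 0 rose (edgeR's quasi-likelihood test, Benjamini-Hochberg adjusted p under 0.05 over all 12619 tested genes). That is 30.6% of the members, a list chosen with earlier results known, where 15.4% of all tested genes fell and 9.99% rose. DESeq2 called 2 members higher and 8 lower, and of all 12619 tested genes 1600 higher and 1918 lower. At an unadjusted p under 0.05 in edgeR, 2 members were higher. The share of all tested genes at that threshold is not given here. By role, the falls took in 4 of 5 deoxynucleotide supply genes, 3 of 6 MCM subunits, 2 of 3 helicase activators, 1 of 4 licensing genes and 1 of 5 chromatin genes, and none of 9 synthesis genes or 4 regulators. The median log2 fold change of the members was -0.26, beside -0.01 for all tested genes. In 20 members every verapamil library lay below both controls, which held for 29% of all tested genes, and in 3 every verapamil library lay above, against 27.7%. Without overlap in either direction were thus 23 of the 36, against 56.7% of tested genes. By CPM, which is not corrected for gene length, 9 members averaged in controls under 5 CPM, 25 between 5 and 50 CPM, and 2, Pcna and Dnmt1, above 50 CPM.

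**Figure D2:**
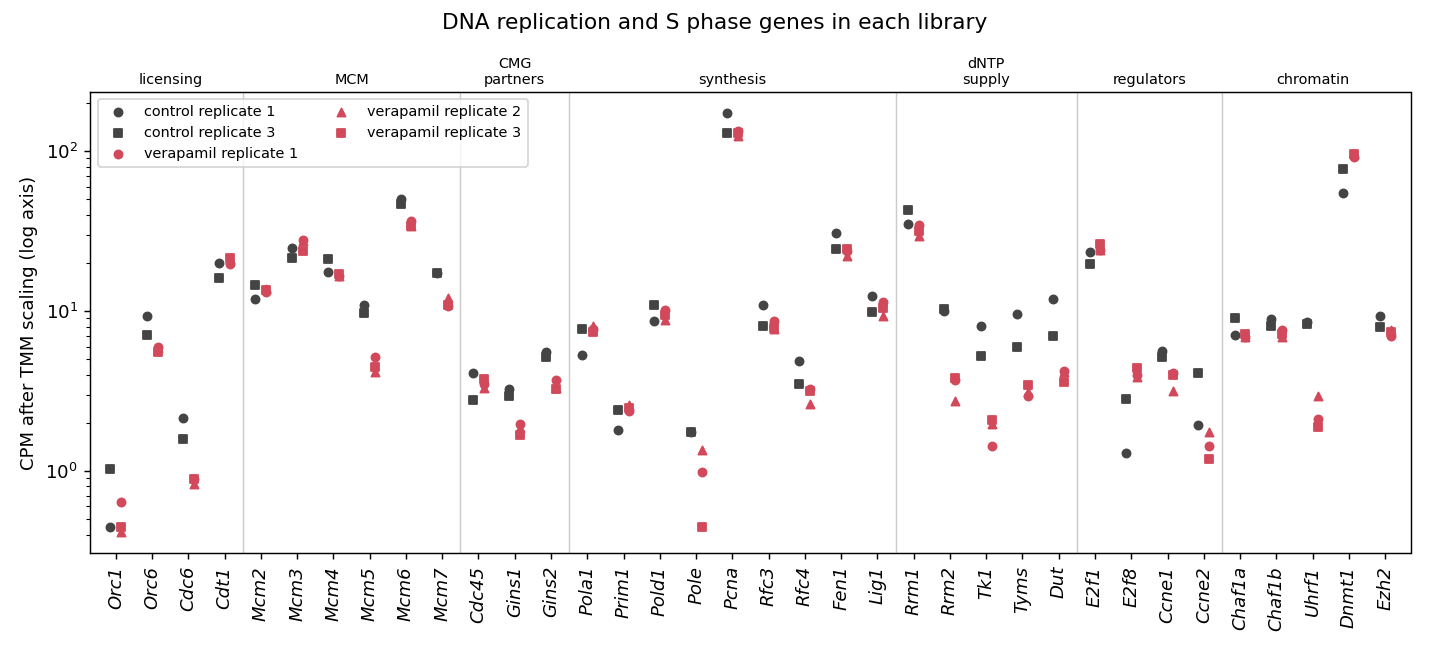
Level of each of the 36 genes in each library, in CPM after TMM scaling on a log axis, ordered by role; black marks are controls and red marks are verapamil libraries. The deoxynucleotide supply genes Rrm2, Tk1, Tyms and Dut and the chromatin gene Uhrf1 show red marks well below black ones, while most synthesis genes show them intermixed.

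The deoxynucleotide supply genes had the highest share of falls, 4 of 5. Tk1, the thymidine kinase of S phase cells, stood at 8.09 and 5.21 CPM in control replicates 1 and 3 and at 1.43, 1.96 and 2.07 CPM in verapamil replicates 1 to 3. Its log2 fold change was -1.87 (SE 0.266, edgeR adjusted p = 0.0049). All verapamil values lay below both controls, and the fall was 1.51 on the log2 scale without control replicate 1 and 2.15 without control replicate 3. Rrm2, the S phase subunit of ribonucleotide reductase, had 9.93 and 10.3 CPM in controls and 3.69, 2.74 and 3.80 CPM with verapamil. It was 2.97-fold lower (log2 -1.57, SE 0.178, edgeR adjusted p = 0.0023), and its controls differed little from each other.

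Tyms, the thymidylate synthase, had 9.62 and 5.93 CPM in controls and 2.95, 3.10 and 3.45 CPM with verapamil (log2 -1.29, SE 0.238, edgeR adjusted p = 0.0117). Dut, which removes dUTP before it enters DNA, had 11.9 and 6.96 CPM against 4.23, 4.13 and 3.60 CPM (log2 -1.24, SE 0.25, edgeR adjusted p = 0.0159). In both genes control replicate 1 stood well above control replicate 3. Without control replicate 1 the log2 fold change was -0.90 for Tyms and -0.80 for Dut, and without control replicate 3 it was -1.60 and -1.58. The call for Dut was lost without verapamil replicate 1, 2 or 3 (edgeR adjusted p = 0.063, 0.0578 and 0.0695) and that for Tyms without verapamil replicate 1 or 2 (adjusted p = 0.0603 and 0.0507). A fit that leaves out a library has fewer degrees of freedom to estimate the spread. A fit without a control also holds no spread between controls. Rrm1, the large reductase subunit that is present through the cycle, had 34.9 and 43.0 CPM in controls and 34.7, 29.5 and 31.6 CPM with verapamil and did not pass (log2 -0.28, 95% interval -0.62 to 0.05, edgeR adjusted p = 0.174). It passed without control replicate 1 (log2 -0.42, adjusted p = 0.015), and after removal of the length trend it passed as well (log2 -0.46, adjusted p = 0.0281).

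The MCM helicase is a ring with a copy of each of Mcm2 to Mcm7, and 3 of these 6 transcripts fell. Mcm5 had 10.8 and 9.73 CPM in controls and 5.16, 4.13 and 4.49 CPM with verapamil, a 2.24-fold fall (log2 -1.16, SE 0.155, edgeR adjusted p = 0.00381). Mcm7 had 17.2 CPM in both controls and 10.8, 12.03 and 10.8 CPM with verapamil (log2 -0.62, SE 0.114, edgeR adjusted p = 0.0117). Mcm6 had 50.1 and 46.5 CPM against 36.6, 34.1 and 34.2 CPM (log2 -0.46, SE 0.104, edgeR adjusted p = 0.0222). The verapamil values of all 3 lay below both controls.

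Mcm4 had 17.4 and 21.1 CPM in controls and 16.5, 16.5 and 17.0 CPM with verapamil, without overlap but short of the threshold (log2 -0.21, 95% interval -0.51 to 0.09, edgeR adjusted p = 0.242). It passed without control replicate 1 (log2 -0.34, adjusted p = 0.0231). Mcm2 had 11.9 and 14.5 CPM against 13.2, 13.8 and 13.5 CPM (log2 0.03, 95% interval -0.29 to 0.35). Mcm3 had 24.8 and 21.6 CPM against 27.8, 27.2 and 23.8 CPM (log2 0.18, 95% interval -0.13 to 0.49). For Mcm2 and Mcm3 the groups overlapped, and the intervals leave out a fall as large as the estimate for Mcm5. The estimate for Mcm2 was below 0 under upper quartile scaling (-0.09), after removal of the length trend (-0.08) and without control replicate 1 (-0.10). Whether the fold changes of the subunits differ from each other was not tested.

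The call for Mcm6 was lost without verapamil replicate 1, 2 or 3 (edgeR adjusted p = 0.0792, 0.122 and 0.126). The call for Mcm7 was lost without verapamil replicate 1 or 3 (edgeR adjusted p = 0.071 and 0.0742). Per kb of exon, Mcm6 was highest in controls at 10.3 CPM per kb, followed by Mcm3 (6.18), Mcm4 (5.37), Mcm7 (3.89), Mcm5 (2.58) and Mcm2 (1.90). With verapamil the levels were 7.497 CPM per kb for Mcm6, 7.00 for Mcm3, 4.64 for Mcm4, 2.54 for Mcm7, 1.94 for Mcm2 and 1.15 for Mcm5. Mcm5 thus lay above Mcm2 in both controls and below it in all 3 verapamil libraries. Mcm3 and Mcm4 in controls, and Mcm6 and Mcm3 with verapamil, were neighbours whose libraries overlapped on this scale. Lengths are of all annotated exons, so this order depends on which transcripts the cells use. Mcm7 shares 12.6% of its exon bases with other annotated genes, the largest part with Ap4m1 on the opposite strand. Strand use in the counting is not stated.

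**Figure D3:**
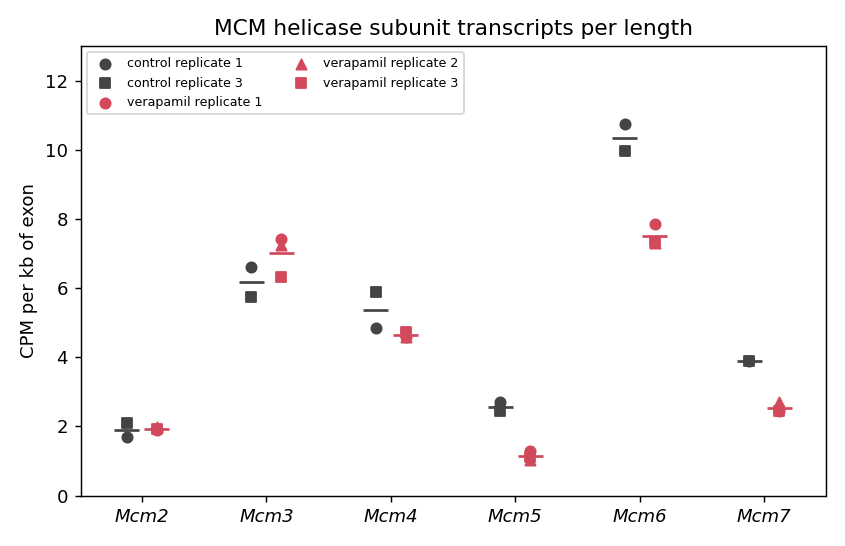
Transcript level of the 6 MCM subunits in CPM per kb of exon; marks are libraries (black controls, red verapamil) and short lines are group means. Mcm5, Mcm6 and Mcm7 show red marks below black ones, and for Mcm2 and Mcm3 the marks overlap.

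Of the 3 partners that complete the helicase, 2 fell. Gins1, a subunit of the GINS complex, had 3.24 and 2.95 CPM in controls and 1.97, 1.86 and 1.68 CPM with verapamil (log2 -0.75, SE 0.193, edgeR adjusted p = 0.035). Gins2, another subunit, had 5.57 and 5.17 CPM against 3.69, 3.31 and 3.25 CPM (log2 -0.65, SE 0.157, edgeR adjusted p = 0.0287). Both had verapamil values below both controls. Cdc45, which bridges GINS and MCM, had 4.09 and 2.78 CPM in controls and 3.49, 3.31 and 3.75 CPM with verapamil, so that all verapamil libraries lay between the controls (log2 0.04, 95% interval -0.49 to 0.57). The estimate was below 0 under upper quartile scaling (-0.09), without control replicate 3 (-0.22) and without verapamil replicate 3 (-0.01).

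Both calls were lost whichever verapamil library was left out (edgeR adjusted p = 0.098 to 0.148 for Gins1 and 0.0835 to 0.134 for Gins2) and in DESeq2's Wald test (adjusted p = 0.0814 and 0.0514). The log2 fold change of Gins1 was -0.68 without control replicate 1, and after removal of the length trend it was -0.50 (edgeR adjusted p = 0.104). Gins2 shares 67.3% of its exon bases with other annotated genes, the largest part with Gse1 on the opposite strand. Gse1 had 37.8 and 43.7 CPM in controls and 42.2, 49.0 and 45.2 CPM with verapamil (log2 0.16, edgeR adjusted p = 0.367), and reads from the shared bases cannot be told apart without strand.

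Among licensing genes Cdc6, the loader of the MCM ring, fell from 2.16 and 1.58 CPM to 0.885, 0.826 and 0.887 CPM (log2 -1.10, SE 0.259, edgeR adjusted p = 0.0266). It rested on 85 counts over the 2 controls and 52 over the 3 verapamil libraries. The call was lost whichever verapamil library was left out (edgeR adjusted p = 0.0908 to 0.0995) and in DESeq2 (adjusted p = 0.0546). Without control replicate 1 the log2 fold change of Cdc6 was -0.86. Cdt1, its partner in loading, had 19.9 and 16.2 CPM in controls and 19.8, 21.3 and 21.4 CPM with verapamil (log2 0.21, 95% interval -0.11 to 0.52, edgeR adjusted p = 0.275). The groups overlapped. Without control replicate 1 it was called higher (log2 0.37, edgeR adjusted p = 0.0238). Orc6, a subunit of the origin recognition complex, had 9.30 and 7.04 CPM against 5.95, 5.84 and 5.57 CPM, without overlap. It did not pass (log2 -0.50, edgeR adjusted p = 0.0754), and its log2 fold change was -0.68 without control replicate 3. Orc1, the largest subunit of that complex, had 34 counts over the controls and 30 over the verapamil libraries. Its levels were 0.449 and 1.02 CPM in controls and 0.639, 0.413 and 0.444 CPM with verapamil, with overlap (log2 -0.56, 95% interval -1.68 to 0.55).

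None of the 9 genes for polymerases, primase, clamp, clamp loader and fragment joining passed the test. Pcna, the sliding clamp and the member with the highest level per kb of exon, had 174 and 130.2 CPM in controls and 133, 125 and 131 CPM with verapamil. Control replicate 3 lay within the verapamil values and control replicate 1 above them (log2 -0.23, 95% interval -0.57 to 0.11, edgeR adjusted p = 0.257). Without control replicate 3 the log2 fold change of Pcna was -0.43, and without control replicate 1 the difference was near 0. The pseudogenes Pcna-ps1 and Pcna-ps2 are annotated, and how the counting divided reads with them is not given in the sources used here.

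Pole, the catalytic subunit of the leading strand polymerase, had 1.75 CPM in both controls and 0.984, 1.34 and 0.444 CPM with verapamil, from 80 and 55 counts (log2 -0.92, 95% interval -1.93 to 0.08, edgeR adjusted p = 0.151). Pold1, the catalytic subunit of the lagging strand polymerase, had 8.63 and 10.97 CPM against 10.1, 8.78 and 9.41 CPM, with overlap (log2 -0.06, 95% interval -0.43 to 0.32). The others ranged from -0.48 for Rfc4, a clamp loader subunit, to 0.24 for Pola1, the polymerase that extends primers. Between them lay Rfc3 (-0.23), the flap nuclease Fen1 (-0.23), the ligase Lig1 (-0.09) and the primase Prim1 (0.23). Verapamil libraries lay below both controls in 2 of the 9, Pole and Rfc4. Without control replicate 3 the log2 fold change was -0.43 for Rfc3, -0.70 for Rfc4, -0.38 for Fen1 and 0.54 for Pola1. Of Fen1 exon bases 84.2% are shared with other annotated genes, the largest part with the antisense transcript Gm10143.

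**Figure D4:**
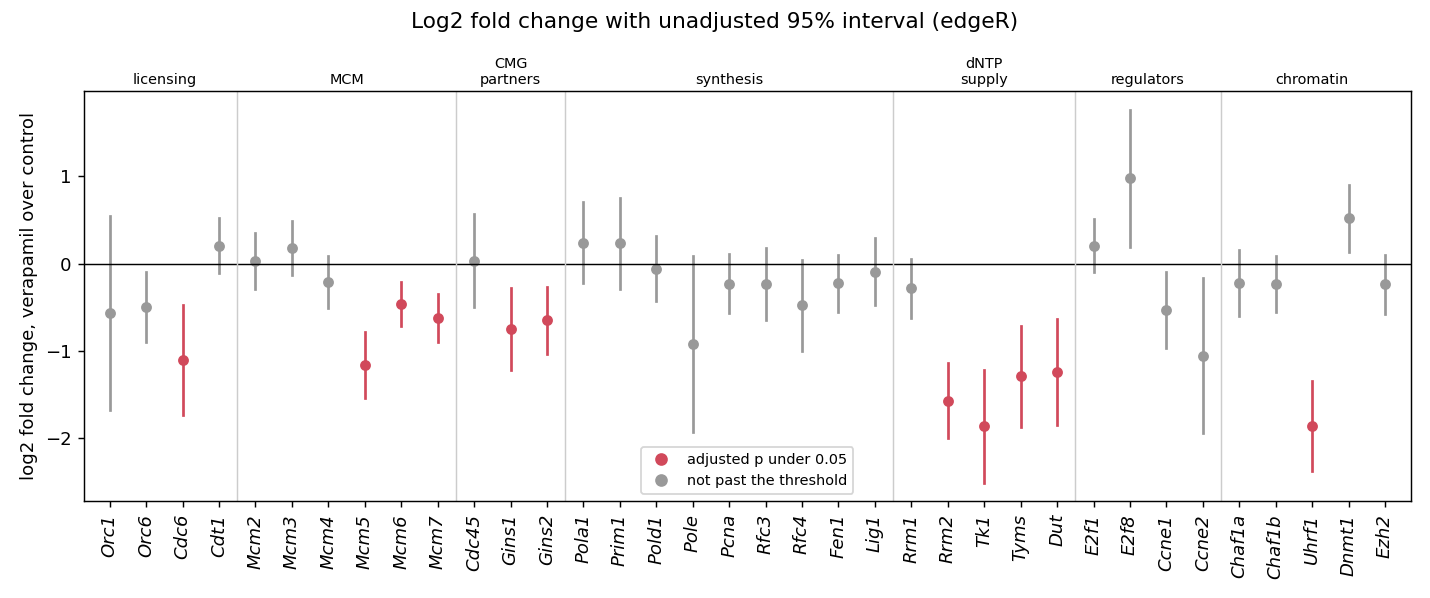
Log2 fold change of verapamil over control for each member with its unadjusted 95% interval from the edgeR fit, ordered by role; red marks passed at an adjusted p under 0.05 and grey marks did not. The 11 red marks are all below 0, and the synthesis group from Pola1 to Lig1 is grey throughout.

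Of the 4 regulators of S phase entry none passed, with 2 estimates above 0 and 2 below. E2f1, an activating factor of the family, had 23.3 and 19.6 CPM in controls and 24.1, 23.9 and 26.3 CPM with verapamil (log2 0.21, 95% interval -0.10 to 0.51, edgeR adjusted p = 0.257). It was called higher without control replicate 1 (log2 0.34, adjusted p = 0.0314). E2f8, a repressor of E2F targets that acts without a DP partner, had 1.30 and 2.82 CPM in controls and 3.98, 3.87 and 4.39 CPM with verapamil. Every verapamil library lay above both controls, which differed from each other by 1.06 on the log2 scale, and the estimate missed the threshold (log2 0.98, SE 0.324, edgeR adjusted p = 0.0732). It passed in DESeq2 (adjusted p = 0.0337), after removal of the length trend (log2 0.93, adjusted p = 0.0442) and without control replicate 3 (log2 1.64, adjusted p = 0.000489). Without control replicate 1 it was 0.54 (edgeR adjusted p = 0.0641). E2f8 has 11.2% of its exon bases in common with other annotated genes, the largest part with Gm2788, a noncoding transcript on the opposite strand.

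Ccne1 and Ccne2 encode the E cyclins that start S phase with Cdk2. Ccne2 had 1.93 and 4.10 CPM in controls and 1.43, 1.76 and 1.18 CPM with verapamil (log2 -1.05, SE 0.369, edgeR adjusted p = 0.0848). Leaving out control replicate 1 gave -1.49 and leaving out control replicate 3 gave -0.41. Ccne1 had 5.66 and 5.17 CPM against 4.08, 3.15 and 3.99 CPM (log2 -0.53, edgeR adjusted p = 0.0769), and passed without control replicate 3 (adjusted p = 0.0268). For both cyclins the verapamil libraries lay below both controls.

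Of the genes that restore chromatin behind the fork, 1 of 5 fell. Uhrf1, which recognises hemimethylated DNA and recruits Dnmt1 to it, had 8.49 and 8.33 CPM in controls and 2.11, 2.94 and 1.87 CPM with verapamil. It fell 3.64-fold (log2 -1.86, SE 0.212, edgeR adjusted p = 0.0023), and its lowest control stood well above its highest verapamil library. Dnmt1, the methyltransferase that restores the methyl mark, had 54.9 and 77.2 CPM in controls and 91.3, 96.4 and 96.4 CPM with verapamil. Its verapamil libraries lay above both controls, with a log2 fold change of 0.52 just short of the threshold (SE 0.158, edgeR adjusted p = 0.0574). Dnmt1 passed as higher in DESeq2 (adjusted p = 0.0175), after removal of the length trend (log2 0.41, adjusted p = 0.0155), and without control replicate 1 (log2 0.30, adjusted p = 0.0171) or 3 (log2 0.79, adjusted p = 6.56e-05). It did not pass without a verapamil library (adjusted p = 0.147 to 0.179), under upper quartile scaling (log2 0.41, adjusted p = 0.0701), or with no filter or a stricter one (adjusted p = 0.0589 and 0.0672). With 7377 bases of exon Dnmt1 is among the longer members, and it was lower in control replicate 1, the library in which long transcripts were lower. The part of length in its control values was not tested. Chaf1a, the large subunit of the CAF-1 histone chaperone, had 7.10 and 9.09 CPM against 6.89, 6.87 and 7.15 CPM, with overlap (log2 -0.22, 95% interval -0.59 to 0.16). Other annotated genes overlap 52.5% of its exon bases, Ubxn6 the largest part. The CAF-1 partner Chaf1b (log2 -0.23) and the H3K27 methyltransferase Ezh2 (log2 -0.24) did not pass either, though their verapamil libraries lay below both controls.

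Of the 11 members that fell, 4 were called lower in each of the 11 alternative analyses run, namely Mcm5, Rrm2, Tk1 and Uhrf1. On GRCm38.p6, as RefSeq gives it, Mcm5 (Entrez 17218) lies on chromosome 8 at 75109468 to 75128439, Rrm2 (20135) on chromosome 12 at 24708254 to 24714146, Tk1 (21877) on chromosome 11 at 117815519 to 117826087, and Uhrf1 (18140) on chromosome 17 at 56303337 to 56323486. Their highest adjusted p over these alternatives were 0.0288, 0.0174, 0.0283 and 0.0207 (edgeR or DESeq2). Mcm5, Rrm2 and Uhrf1 share no exon bases with another annotated gene, and Tk1 shares 1.6%, the largest part with Afmid. Members called lower numbered 4, 5 and 5 when verapamil replicate 1, 2 or 3 was left out. In the same fits 1009 of 12548, 1093 of 12571 and 1020 of 12541 tested genes were called lower. In these fits 0 members were called higher, beside 476, 472 and 440 of all tested genes. With a control left out the p-values hold no spread between controls.

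**Figure D5:**
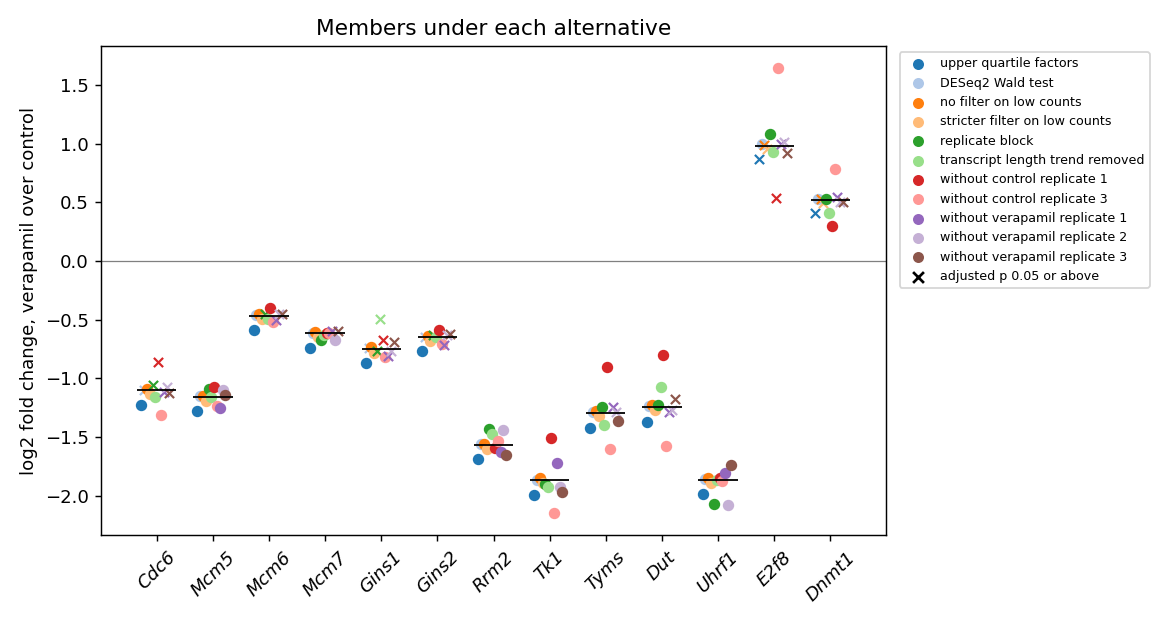
Log2 fold change of the 11 members that fell, and of E2f8 and Dnmt1, in the main analysis (black line) and in each of 11 alternatives (marks by colour; crosses have an adjusted p of 0.05 or above). Mcm5, Rrm2, Tk1 and Uhrf1 carry no cross, and Tk1, Tyms, Dut and E2f8 move most when a control is left out.

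A wider list held 75 other replication genes. Of 73 tested (all but Dscc1 and E2f7), 12 fell (16.4%, against 15.4% of all genes) and 5 rose (6.85% against 9.99%), with a median log2 fold change of -0.12, so that the shares stood near those of all genes. Of the 12 falls, 4 were among the 6 genes of deoxynucleotide supply and removal. Dck, a salvage kinase for deoxynucleosides, had 27.2 and 37.0 CPM in controls and 13.5, 15.2 and 15.4 CPM with verapamil (log2 -1.12, SE 0.158, edgeR adjusted p = 0.00465). Also lower, and named after their values were seen, were Dtymk, which makes dTDP (log2 -0.79, edgeR adjusted p = 0.0337, lost whichever verapamil library was left out, at 0.0596 to 0.126), and Samhd1. Samhd1 breaks deoxynucleotides down rather than supplying them, and it had 245 and 255 CPM in controls and 166, 166 and 171 CPM with verapamil (log2 -0.57, SE 0.0865, edgeR adjusted p = 0.00578).

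The largest falls of that list were in Pclaf, the PCNA-associated factor (5.71 and 5.38 CPM to 1.23, 0.826 and 0.444 CPM, log2 -2.72, edgeR adjusted p = 0.00315), and in Ccna2, the cyclin of S phase and G2 (8.0 and 5.38 CPM to 1.72, 0.723 and 1.04 CPM, log2 -2.52, adjusted p = 0.00463). Mybl2, a partner of the MuvB proteins, fell by 2.09 (edgeR adjusted p = 0.0156), a call that ended when verapamil replicate 1 or 3 was left out (adjusted p = 0.0712 and 0.0646). Mcm10, which helps start unwinding, fell by 1.48 (edgeR adjusted p = 0.0172), and its call was lost without the same libraries (adjusted p = 0.0741 and 0.0721). The fork protection gene Timeless and the replisome gene Donson fell by 1.04 and 0.59 (edgeR adjusted p = 0.0141 and 0.0219), and neither passed with any single verapamil library absent (0.0579 to 0.106 after adjustment). The nuclease gene Exo1 fell by 1.49 (edgeR adjusted p = 0.0286), from only 39 counts over the controls and 18 over the verapamil libraries, and its call was lost in DESeq2 (adjusted p = 0.0924), without control replicate 3 and whichever verapamil library was left out (0.0702 to 0.113).

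The 5 rises in that list, named with their values known, were E2f2, Lin9, Lin54, Dna2 and Rnaseh2b. E2f2, an activating E2F factor, had 11.4 and 12.6 CPM in controls and 23.3, 20.2 and 22.4 CPM with verapamil (log2 0.87, SE 0.125, edgeR adjusted p = 0.00491), without overlap, and was called higher in each of the 11 alternatives. The MuvB subunits Lin9 and Lin54 rose by 0.74 and 0.55 (edgeR adjusted p = 0.0267 and 0.0309). The nuclease Dna2 and the RNase H2 subunit Rnaseh2b rose by 0.71 and 0.64 (edgeR adjusted p = 0.0356 and 0.0299). Lin9, Lin54, Dna2 and Rnaseh2b did not pass with any single verapamil library absent (0.0802 to 0.132 after adjustment), and Rnaseh2b did not pass under upper quartile scaling (adjusted p = 0.0817) or after removal of the length trend (0.0583).

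Among 30 genes of mitosis, the division that follows replication, 18 were lower and 1 higher (60% and 3.33%, against 15.4% and 9.99% of all genes), with a median log2 fold change of -0.89. A difference in frequency from the replication genes was not tested. Kif2c, a motor that frees wrongly attached microtubules, had 4.85 and 4.18 CPM in controls and 0.639, 0.465 and 0.641 CPM with verapamil (log2 -2.94, edgeR adjusted p = 0.000799). Ccnb2, a mitotic cyclin, fell by 2.64 and Birc5, the survivin of the chromosomal passenger complex, by 2.13 (edgeR adjusted p = 0.00278 and 0.00255). Kif23, a motor of cytokinesis named with its values known, rose from 4.05 and 5.76 CPM to 12.2, 10.2 and 10.6 CPM (log2 1.17, edgeR adjusted p = 0.00867). Mki67, the common marker of cycling cells, named on the same terms, had 23.0 and 27.9 CPM in controls and 19.97, 28.6 and 24.9 CPM with verapamil, with overlap (log2 -0.06, edgeR adjusted p = 0.835). With verapamil replicate 1, 2 or 3 left out, 11 of the 30 mitosis genes were called lower. Of all tested genes 1009 of 12548, 1093 of 12571 and 1020 of 12541 were lower in those fits.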

How the data were processed

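RNA was sequenced from osteoclast cultures with and without verapamil. The values deposited by the authors are estimated counts, one row per gene with up to 2 decimals, not normalized (per the file headers and the values). The submitters' processing notes list GRCm38 and mm10 as builds. Aligner, counting program, annotation and strand setting: not given in the sources used here.

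Counts were rounded. In R 4.3.3, edgeR 4.0.16 kept 12619 genes (minimum count 10, minimum total count 15), scaled libraries by TMM and fitted a quasi-likelihood model with group as the only term (3 residual and 3.28 prior degrees of freedom). A gene was called at a Benjamini-Hochberg adjusted p under 0.05. The planned test of 3 against 3 was run with 2 controls. Standard errors restate the test (the size of the log2 fold change over the root of its F statistic), and 95% intervals use them unadjusted. The code was tested on simulated data. Exon lengths and overlaps come from GENCODE M21 on GRCm38, and gene positions and promoters from RefSeq GRCm38.p6.

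The members and lists were chosen with earlier results of these data known. Values per library were given by rule for the member with the largest and smallest change in each role, the MCM subunits and Pcna. Also by rule, up to 2 called genes per role of the other replication genes, the 3 called mitosis genes with the largest change and the highest gene of the marker lists were named. Alternatives were upper quartile scaling, DESeq2 1.42.0, no filter and a stricter filter (30 and 45), a replicate block, each library left out, and removal of the transcript length trend, which was chosen after seeing the data. The result for 1 gene named by that rule is not reported here.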

Additional observations from a re-analysis of the deposited data

How the results depend on the processing

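No member called in the main analysis changed sign in any of the 11 alternatives. With upper quartile factors 28.2% of called genes were higher, against 39.4%, the median of all genes moved from -0.01 to -0.13 and that of the members to -0.38. With the length trend removed the members' median was -0.35 and 1922 genes were higher. Members called higher numbered 2 with DESeq2, 2 with the length trend removed and 2 with the replicate block, in each case Dnmt1 and E2f8. Mitosis genes called higher numbered 2 with DESeq2 and 2 with the length trend removed.

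Leaving out each library in turn gave 4 to 17 members lower and 0 to 3 higher, and a median of -0.40 to -0.25. It gave 4 to 24 other replication genes lower and 1 to 23 higher, 11 to 21 mitosis genes lower and 1 to 2 higher, 1009 to 3825 genes lower and 440 to 3983 higher in all, and 30.1% to 51% of called genes higher.

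The replicate numbers are shared by the groups, but the labels do not say what a number marks. Deviations from the group means correlated at 0.29 for the libraries numbered 1 and 0.02 for those numbered 3, and at 0.29 for control replicate 3 with verapamil replicate 2, whose numbers differ. With 2 controls the deviations of one mirror those of the other, and these values give no sign that the numbers pair the libraries. With the replicate block 9 members were lower and 8 other replication genes were higher, beside 1975 of all genes lower and 1342 higher. Since control replicate 2 is absent, verapamil replicate 2 stands alone in its block and adds nothing to the group difference. The block ended the calls of Cdc6, Gins1, Gins2 and Mcm6 (edgeR adjusted p = 0.0506, 0.0927, 0.0942 and 0.115). Under the block Ccne2 (log2 -1.14, edgeR adjusted p = 0.0119) and Pole (log2 -1.33, adjusted p = 0.0144), which did not pass without it, were called lower. Dnmt1 (log2 0.53, adjusted p = 0.0341) and E2f8 (log2 1.08, adjusted p = 0.00472) were called higher. For Ccne2 and Pole verapamil replicate 2 was the highest verapamil library (1.76 CPM against 1.43 and 1.18, and 1.34 CPM against 0.984 and 0.444). Orc1, Pole and Cdc6 rest on 30 to 85 counts per group, and the part of depth in their calls was not tested.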
